A study of Mus musculus with 9 samples.

Results

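The genes described here encode the ligand, the receptors and the Smad proteins of TGF-beta signalling. They are the 10 entries Tgfb1, Nrros, Tgfbr1, Tgfbr2, Smad2, Smad3, Smad4, Smad7, Ski and Skil among the 23238 gene symbols counted, were taken by symbol alone, and had 1 entry each. Their RNA was measured in microglia sorted from the brain of adult female C57BL/6N wild-type mice as CD45+CD11b+P2ry12+ cells on day 1. Normal mice were untreated. NMO mice received NMO-IgG, patient antibody to aquaporin-4, with human complement in the striatum, which models neuromyelitis optica. The NMO+CL mice had the same injection and were also given clodronate liposomes, which deplete phagocytic cells such as circulating monocytes, before it. Each group had 3 libraries, each from a pool of 3 mice and described by the study as an independent biological replicate. Mice given control IgG or empty liposomes were not analysed here, so the effects of injection, antibody and complement cannot be told apart, nor those of clodronate and liposome.

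TGF-beta is secreted in a latent complex, which in microglia is held at the surface by Nrros, also named Lrrc33, and is released by integrins. The active ligand brings the type II receptor Tgfbr2 together with the type I receptor Tgfbr1, which phosphorylates Smad2 and Smad3. These join Smad4 and enter the nucleus, where Ski and Skil repress the complex, while Smad7 is induced by the pathway and acts back on the receptor. In microglia the pathway is known for maintaining the homeostatic gene programme.

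The 2 receptor genes were the members with the largest differences between NMO+CL and NMO among those with more than a few counts per library, so the 250 bases before their annotated starts are shown, from the RefSeq promoter table of GRCm38.p6. Capitals mark the letters CAGAC, the Smad box, and GAGGAAG, a core bound by PU.1, searched on both strands. The Tgfbr1 window was chr4:47352972-47353221 on the plus strand and the Tgfbr2 window was chr9:116175364-116175613 on the minus strand.
Tgfbr1: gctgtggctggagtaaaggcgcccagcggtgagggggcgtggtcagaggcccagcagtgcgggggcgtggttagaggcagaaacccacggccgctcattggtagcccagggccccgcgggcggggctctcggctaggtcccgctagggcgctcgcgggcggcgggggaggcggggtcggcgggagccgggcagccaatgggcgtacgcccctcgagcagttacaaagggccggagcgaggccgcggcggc
Tgfbr2: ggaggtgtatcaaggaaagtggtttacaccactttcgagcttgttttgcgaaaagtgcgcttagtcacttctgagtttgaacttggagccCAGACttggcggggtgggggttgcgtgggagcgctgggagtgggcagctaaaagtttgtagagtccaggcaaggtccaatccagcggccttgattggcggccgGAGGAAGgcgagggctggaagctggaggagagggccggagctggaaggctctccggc
The Tgfbr2 window held 1 Smad box and 1 PU.1 core, and the Tgfbr1 window held neither. Among 32851 promoter windows of this length, 42.2% held CAGAC and 10.6% held GAGGAAG on either strand, so both matches are common letters. The palindrome GTCTAGAC, which was in 0.167% of windows, was in neither. The Tgfbr1 window was 74.8% G and C with 29 CG pairs, the Tgfbr2 window 58.4% with 12, and the median over all windows was 52.4%.

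The libraries had total counts of 5788234 to 7837219, of which the ribosomal precursor Rn45s took 15.98% to 30.98%. Values below are CPM, counts relative to library sizes after TMM scaling, and errors are SD with n = 3. All 10 members passed the filter on low counts, and the levels of different genes are not compared. Calls were made where the adjusted p was under 0.05 in edgeR's quasi-likelihood test over 12292 genes, and log2 fold changes are fitted values. The summed level of 10 microglia markers was 34170 to 38820 CPM in Normal, 29410 to 34230 in NMO and 19910 to 27560 in NMO+CL. No marker of that list was at 0 in any group. P2ry12, the gene of the sort marker, was 2443 ± 337 CPM in Normal and 1648 ± 100 CPM in NMO, and 353 ± 92.1 CPM in NMO+CL. The summed level of 9 neutrophil markers was 38.7 to 536 CPM in Normal, 110 to 382 in NMO and 286 to 1363 in NMO+CL, with none at 0 in a group. S100a8 and S100a9 had the highest levels of these neutrophil markers. In replicate order S100a9 was at 205, 13.8 and 12.8 CPM in Normal, 108, 40.2 and 152 in NMO, and 611, 122 and 213 in NMO+CL. The summed level of 10 monocyte markers was 68.0 to 113, 84.2 to 116 and 52.2 to 166 CPM, also with none at 0 in a group. The summed level of 10 astrocyte and oligodendrocyte markers was 277 to 313 CPM in Normal, 198 to 203 CPM in NMO and 113 to 196 CPM in NMO+CL, without overlap between any groups. Aldh1l1, Gfap and Mog were at 0 in all Normal libraries, Gfap in all NMO libraries and Aldh1l1 in all NMO+CL libraries. That of 7 platelet markers was 44.2 to 58.5 CPM in Normal, 27.4 to 40.2 CPM in NMO and 17.0 to 27.6 CPM in NMO+CL, with Itga2b, Ppbp and Tubb1 at 0 in all NMO libraries and Tubb1 in all NMO+CL libraries. Those of 9 endothelial and pericyte markers (76.7 to 99.8, 50.8 to 93.2 and 86.8 to 124 CPM) and of 9 lymphocyte markers (13.2 to 20.7, 9.61 to 21.6 and 4.37 to 15.4 CPM) overlapped between NMO+CL and Normal. Pdgfrb and Rgs5 were at 0 in all NMO libraries. Of the lymphocyte markers Cd3e was at 0 in all 9 libraries, with Cd3g and Klrb1c also at 0 in all Normal libraries.

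Among single markers of other cell types, Kdr, an endothelial receptor, was called higher in NMO+CL against NMO (log2 fold change 1.86, adjusted p = 0.0272) and against Normal (1.37, adjusted p = 0.0418). Of the 7 endothelial and pericyte markers tested, 4 had a positive and 3 a negative log2 fold change in both comparisons. Against Normal, Fn1 of the monocyte list was called higher (2.45, adjusted p = 0.0218). Of the 10 monocyte markers, 6 were positive and 4 negative there, the latter including Vcan (-1.58) and Ccr2 (-1.25), neither called. Of the 4 platelet markers tested against Normal, 1 was positive and 3 were negative. Called lower against Normal were the platelet gene Gp9 (-2.31, adjusted p = 0.00298), the oligodendrocyte gene Cnp (-1.23, 0.0258) and the astrocyte glutamate transporter Slc1a3 (-0.88, 0.0270). So was the glutamate transporter Slc1a2 (adjusted p = 0.0298), which was at 19.1, 0 and 7.57 CPM in Normal and at 0.146, 0 and 0 CPM in NMO+CL. In bulk RNA, fewer cells of a type and less RNA per cell cannot be told apart, and the part of these marker levels in the results below was not tested.

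**Figure D1:**
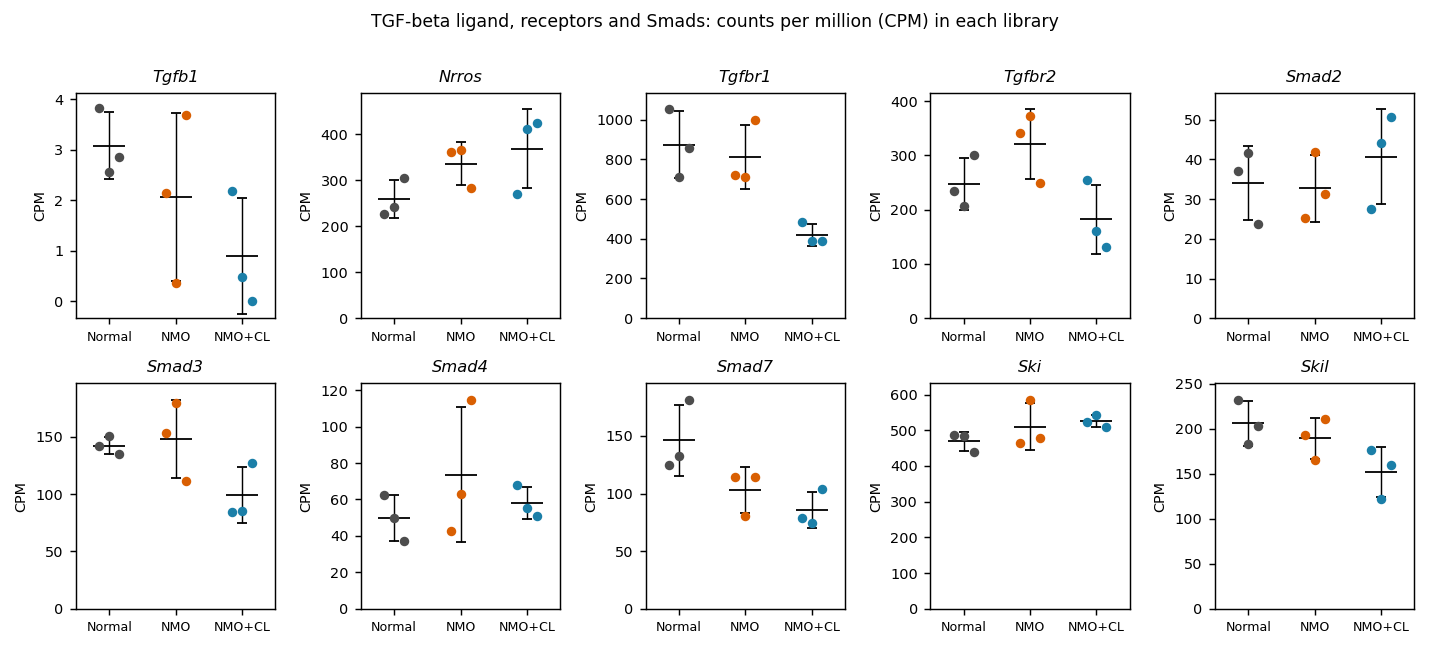
CPM of each of the 10 members (vertical axes, 1 scale per gene) in the Normal, NMO and NMO+CL libraries. Points are libraries in replicate order, the wide bar is the group mean and the whiskers are 1 SD (n = 3). The 3 NMO+CL libraries lie below all others for Tgfbr1, between 387 and 485 CPM.

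Between NMO and Normal no member was called, where 0.472% of all genes tested were called higher and 0.0244% lower. None passed a second rule, 1.5-fold after the text of the study with p under 0.05 taken as unadjusted, which 7.96% of genes passed, and 1 member, Smad7, had an unadjusted p under 0.05. Between NMO+CL and NMO, 1 member was called, Tgfbr1, which was lower, against 0.529% of genes called higher and 1.07% lower. That rule took 2 members, Tgfbr1 and Tgfbr2, both lower, against 10.7% of genes. Between NMO+CL and Normal 2 members were called, Tgfbr1 and Smad7, both lower, against 4.79% of genes called higher and 4.43% lower. The same 2 passed that rule, as did 20.1% of genes. The median log2 fold change of the members was 0.00 in the first comparison, -0.33 in the second and -0.44 in the third, beside -0.01, 0.00 and -0.01 over all genes tested. The comparisons share libraries and are not independent of each other.

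**Figure D2:**
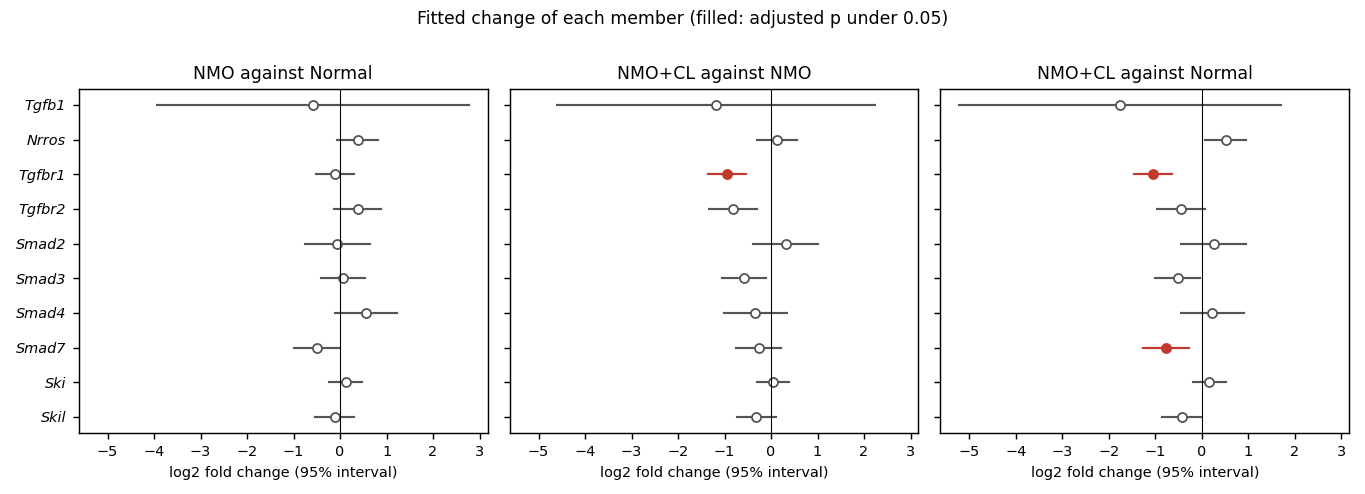
Fitted log2 fold change (horizontal axes) of each member with its 95% interval in the 3 comparisons. Filled red points are called at an adjusted p under 0.05: Tgfbr1 at -0.95 and -1.06, and Smad7 at -0.77.

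The receptor Tgfbr1, the kinase that phosphorylates the Smads, was less abundant in NMO+CL than in either other group. It was at 1051, 713 and 857 CPM in Normal, at 723, 712 and 996 CPM in NMO and at 485, 389 and 387 CPM in NMO+CL. The NMO+CL libraries were all below the others, while those of NMO and Normal overlapped. The fold of NMO+CL to NMO was 0.519, a log2 fold change of -0.95 (95% interval -1.36 to -0.54, adjusted p = 0.0199). The fold to Normal was 0.481, a log2 fold change of -1.06 (-1.47 to -0.64, adjusted p = 0.00210). NMO differed from Normal by -0.11 (-0.52 to 0.30, adjusted p = 0.956). The call against NMO was lost without NMO replicate 1 (adjusted p = 0.0523), without NMO replicate 3 (0.0827), without NMO+CL replicate 2 (0.118) and with the 2 groups fitted alone (0.0540), and it held in 13 of 17 alternatives, over which the adjusted p ran to 0.118. The call against Normal held in all 17. The gene lies at chr4:47353222-47414931 on the plus strand in GENCODE M21, and its counts came from the 3′ ends of its transcripts.

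The type II receptor Tgfbr2, which binds the ligand first, was at 235, 207 and 300 CPM in Normal, at 341, 372 and 249 CPM in NMO and at 254, 161 and 131 CPM in NMO+CL. NMO+CL replicate 1 was above NMO replicate 3, so the groups overlapped, and this 1 library also stood above the other NMO+CL libraries. The log2 fold change of NMO+CL to NMO was -0.82 (-1.33 to -0.30, unadjusted p = 0.00386), which passed the 1.5-fold rule but not the adjusted threshold (adjusted p = 0.123). It was called without NMO+CL replicate 1 (adjusted p = 0.0206), with no filter (0.00837) and with DESeq2 (0.0346), and over the 17 alternatives in no other. Against Normal it was -0.44 (-0.96 to 0.07, adjusted p = 0.316), and NMO against Normal was 0.37 (-0.14 to 0.89, adjusted p = 0.706). The gene lies at chr9:116084293-116175360 on the minus strand.

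**Figure D3:**
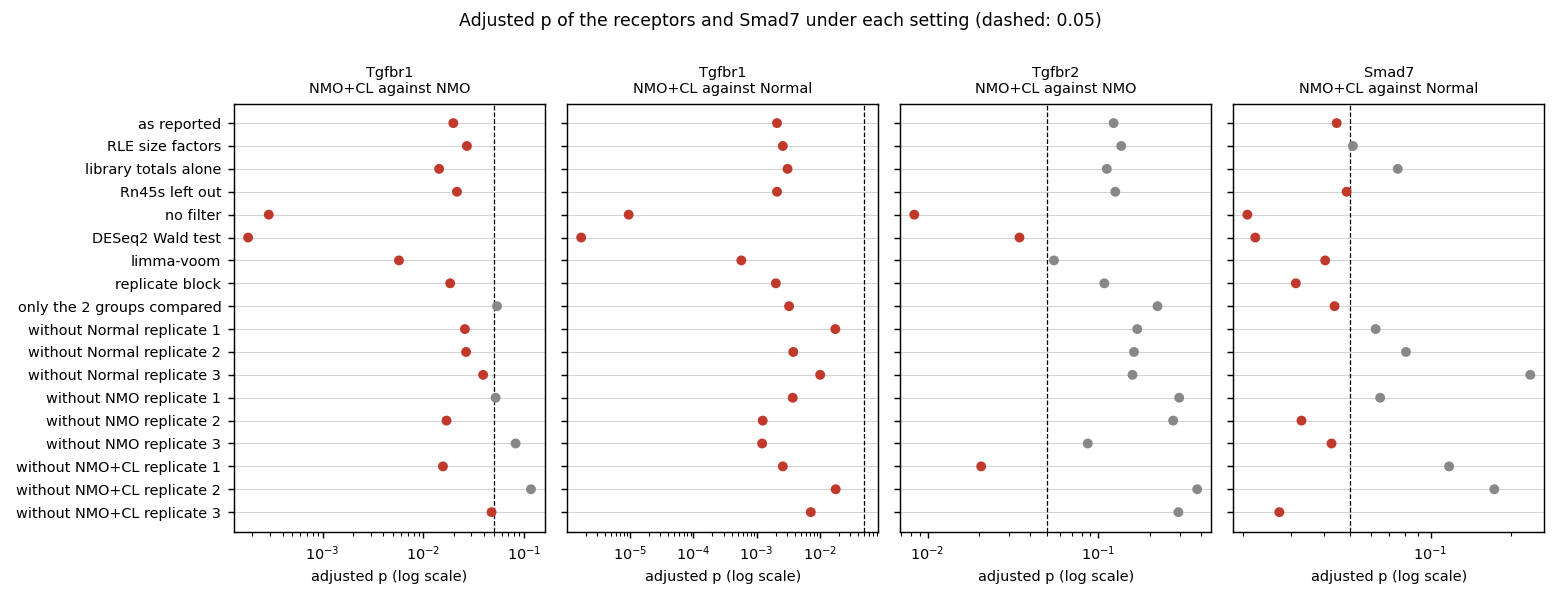
Adjusted p (horizontal axes, log scales that differ between panels) of Tgfbr1, Tgfbr2 and Smad7 in the comparisons named, as reported and under each of 17 alternatives. Red points are under 0.05, the dashed line. Tgfbr1 against Normal is red in all, and Smad7 in 9 of the 17.

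The ligand gene Tgfb1 had few counts in these libraries, and how fully the 3′ libraries capture its transcripts was not tested. It had 24, 17 and 17 counts in Normal (3.82, 2.56 and 2.86 CPM), 17, 3 and 23 in NMO (2.14, 0.359 and 3.68 CPM) and 15, 3 and 0 in NMO+CL (2.19, 0.486 and 0 CPM). Every NMO+CL library was below every Normal library, but the log2 fold change of -1.76 had an interval of -5.22 to 1.70 (adjusted p = 0.631), so the test resolved neither a rise nor a fall. A count of 0 allows up to 3 counts. The ends of all annotated transcripts of the gene resembled in all those of 110 other genes (at least 75 bases at 90% identity), whereas the end of its principal transcript resembled none, and the second check was added after the first had been seen. Reads that align to several genes were counted, so this bears on so low a count. The gene lies at chr7:25687002-25705077 on the plus strand.

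Nrros, which anchors latent TGF-beta on microglia, was at 227, 243 and 305 CPM in Normal, at 361, 366 and 283 CPM in NMO and at 269, 411 and 425 CPM in NMO+CL. In each treated group 2 of 3 libraries were above all Normal libraries and 1 was not. NMO+CL differed from Normal by 0.51 on the log2 scale (0.07 to 0.95, unadjusted p = 0.0254, adjusted p = 0.148). It was called only without NMO+CL replicate 1 (adjusted p = 0.0463) among the 17 alternatives. NMO differed from Normal by 0.38 (-0.06 to 0.82, adjusted p = 0.617), and NMO+CL from NMO by 0.13 (-0.31 to 0.57, adjusted p = 0.881). The gene lies at chr16:32142785-32165594 on the minus strand.

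Smad3, one of the Smads phosphorylated by the receptor, was at 142, 150 and 135 CPM in Normal, at 153, 179 and 112 CPM in NMO and at 84.2, 85.7 and 127 CPM in NMO+CL. All NMO+CL libraries were below all Normal libraries, but 1 of them was above 1 NMO library. The log2 fold change was -0.52 against Normal (-1.0 to -0.04, unadjusted p = 0.0342, adjusted p = 0.179) and -0.58 against NMO (-1.06 to -0.10, adjusted p = 0.270). It was not called in any of the 17 alternatives in either comparison. The gene lies at chr9:63646767-63757994 on the minus strand.

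Smad2, the other receptor-regulated Smad, was at 37.1, 41.5 and 23.7 CPM in Normal, at 25.1, 41.8 and 31.2 CPM in NMO and at 27.6, 44.1 and 50.6 CPM in NMO+CL. The groups overlapped throughout, and the log2 fold changes ran from -0.06 to 0.32 with adjusted p of 0.756 to 0.990. Smad4, the partner of both, was at 62.5, 49.7 and 37.4 CPM in Normal, at 42.9, 63.2 and 115 CPM in NMO and at 68.1, 55.4 and 50.9 CPM in NMO+CL. NMO replicate 3 stood above all other libraries, and no comparison of Smad4 had an adjusted p below 0.639. Over the 3 comparisons the 95% intervals of the log2 fold change reached from -0.76 to 1.01 for Smad2 and from -1.01 to 1.23 for Smad4.

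Smad7, the inhibitory Smad that the pathway induces, fell in NMO+CL against Normal. It was at 125, 132 and 181 CPM in Normal, at 115, 80.4 and 115 CPM in NMO and at 78.5, 74.7 and 104 CPM in NMO+CL. Every NMO and every NMO+CL library was below every Normal library, while NMO and NMO+CL overlapped. The log2 fold change of NMO+CL to Normal was -0.77 (-1.26 to -0.28, adjusted p = 0.0446), and that of NMO to Normal was -0.50 (-0.99 to -0.02, unadjusted p = 0.0432, adjusted p = 0.505). The call held in 9 of 17 alternatives. It was lost without Normal replicate 1 (0.0624), 2 (0.0809) or 3 (0.236), without NMO replicate 1 (0.0648), without NMO+CL replicate 1 (0.117) or 2 (0.173), and with RLE size factors (0.0513) or library totals (0.0754), each an adjusted p.

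Of the nuclear repressors, Skil was at 232, 183 and 203 CPM in Normal, at 193, 165 and 210 CPM in NMO and at 176, 122 and 159 CPM in NMO+CL. Its NMO+CL libraries were all below its Normal libraries (log2 fold change -0.43, -0.86 to -0.01, unadjusted p = 0.0440, adjusted p = 0.209). Ski was at 486, 484 and 438 CPM in Normal, at 465, 585 and 479 CPM in NMO and at 524, 543 and 509 CPM in NMO+CL. Its NMO+CL libraries were all above its Normal libraries, by 0.16 on the log2 scale (-0.19 to 0.51, adjusted p = 0.670). In GENCODE M21 Skil lies at chr3:31095058-31122577 on the plus strand and Ski at chr4:155154075-155222592 on the minus strand. No exon of any of the 10 members overlaps an exon of another gene there.

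Between NMO+CL and Normal the libraries of 5 members did not overlap with NMO+CL lower (Tgfb1, Tgfbr1, Smad3, Smad7 and Skil), and those of 1, Ski, with NMO+CL higher. Over all genes tested the shares were 14.9% lower and 13.8% higher. Between NMO+CL and NMO, Tgfbr1 alone did not overlap and was lower, against 9.22% of genes lower and 7.89% higher. Between NMO and Normal it was Smad7 alone, lower, against 8.2% of genes lower and 9.21% higher.

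The ratio of 2 members within a library does not depend on the scaling of libraries. The ratio of Smad2 to Smad3 counts was 0.262, 0.276 and 0.176 in Normal, 0.164, 0.233 and 0.279 in NMO and 0.328, 0.514 and 0.397 in NMO+CL. All NMO+CL ratios were above all others, by 0.88 on the log2 scale against NMO and 0.80 against Normal. The ratio of Skil to Ski was 0.477, 0.378 and 0.463 in Normal, 0.414, 0.283 and 0.439 in NMO and 0.336, 0.224 and 0.313 in NMO+CL, with NMO+CL below all of Normal by a log2 difference of -0.61. In exact two-sided permutation tests these 3 differences had p = 0.1, the smallest that 3 against 3 libraries allow, and 0.4 after Benjamini-Hochberg adjustment over 12 tests. The ratio of Tgfbr1 to Tgfbr2 overlapped between all groups, at 4.48, 3.44 and 2.85 in Normal, 2.12, 1.91 and 4.0 in NMO and 1.91, 2.42 and 2.95 in NMO+CL. The ratio of Smad7 to Smad4 also overlapped in every comparison, with exact p from 0.2 to 1.

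**Figure D4:**
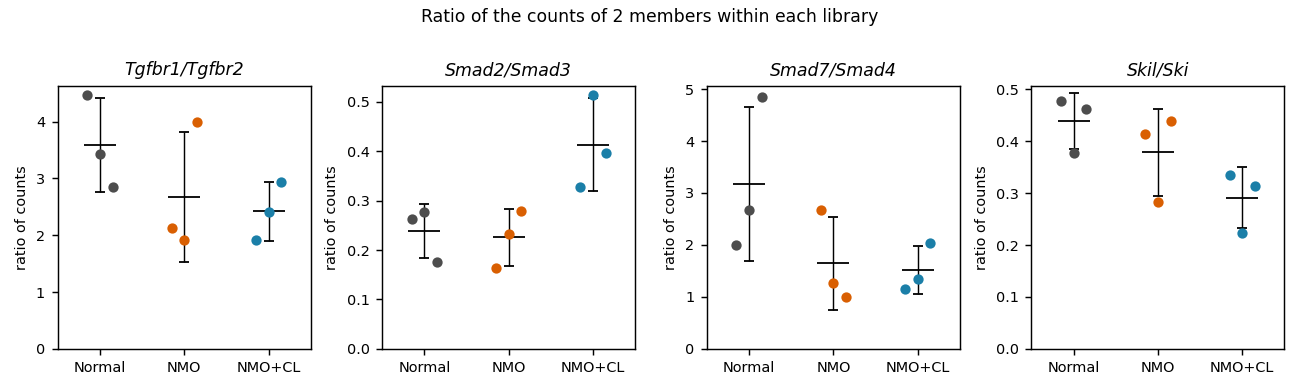
Ratio of the counts of 2 members within each library (vertical axes from 0). Points are libraries, wide bars are means and whiskers are 1 SD (n = 3). The Smad2 to Smad3 ratio lies between 0.328 and 0.514 in NMO+CL and at or under 0.279 elsewhere.

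Of 56 other genes of the pathway, 47 passed the filter. This list and those of responsive and TGF-beta dependent genes below were written with earlier results of these data known, so their counts are descriptive. Between NMO and Normal 1 was called higher, between NMO+CL and NMO 1 was called higher and 2 lower, and between NMO+CL and Normal 1 was called higher and 4 lower. Of all genes tested, 0.472%, 0.529% and 4.79% were called higher and 0.0244%, 1.07% and 4.43% lower in these comparisons. Their median log2 fold changes were -0.24, 0.04 and -0.14. Pmepa1, a membrane protein that is induced by the pathway and restrains it, was at 1264, 1164 and 1457 CPM in Normal, at 1100, 991 and 1195 in NMO and at 517, 485 and 676 in NMO+CL. NMO+CL lay below both other groups, by -0.97 against NMO (adjusted p = 0.00844) and -1.21 against Normal (adjusted p = 3.11e-04). The call against NMO was lost without NMO replicate 1 (adjusted p = 0.0505) or NMO+CL replicate 2 (0.0779), and that against Normal held in all 17 alternatives.

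Acvr1, a type I receptor used by BMPs, was at 45.6, 50.4 and 105.5 CPM in Normal, at 57.2, 63.9 and 73.5 in NMO and at 32.8, 14.6 and 14.6 in NMO+CL. It was called lower in NMO+CL, by -1.65 against NMO (adjusted p = 0.0296) and -1.70 against Normal (adjusted p = 0.00692). Without Normal replicate 3, the highest library, the adjusted p against Normal was 0.0713, and the call against NMO was lost without NMO replicate 1 (0.0690) or 3 (0.0796) or NMO+CL replicate 2 (0.164) or 3 (0.0868), and with the 2 groups fitted alone (0.0658). Tab2, an adaptor of the TAK1 kinase, fell from 336 ± 17.0 CPM in Normal to 201 ± 23.2 in NMO+CL, a log2 fold change of -0.74 (adjusted p = 0.0120) that was called in all 17 alternatives, and was at 267 ± 22.5 in NMO. A secondary transcript end of Tab2 resembled that of Gm4917. Tgif2, a nuclear repressor of Smads, was at 27.0 ± 4.81 CPM in Normal and 9.0 ± 5.53 in NMO+CL (-1.59, adjusted p = 0.0304), a call that was lost without any 1 Normal library (adjusted p of 0.0597 to 0.112) or without NMO+CL replicate 1 (0.0977) or 2 (0.129). The end of Tgif2 overlaps 5430405H02Rik on the other strand, and strand use in counting is not stated, so its reads cannot be told apart from those of that gene.

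Dab2, an endocytic adaptor that binds the receptors, rose in every comparison. It was at 24.1, 21.8 and 22.9 CPM in Normal, at 63.7, 84.6 and 37.0 in NMO and at 172, 176 and 113 in NMO+CL, with no overlap between any groups. NMO exceeded Normal by a log2 fold change of 1.43 (adjusted p = 0.0324). NMO+CL exceeded NMO by 1.31 (adjusted p = 0.0249) and Normal by 2.75 (adjusted p = 2.46e-05). The first call was lost without Normal replicate 1 (0.113), 2 (0.154) or 3 (0.152) or NMO replicate 1 (0.103) or 2 (0.131), and the second without NMO replicate 1 (0.0759) or 3 (0.0573) or NMO+CL replicate 1 (0.0545) or 2 (0.125). With the 2 groups fitted alone both were lost (0.0767 and 0.0718), and with limma-voom the first was (0.127). The third held in all 17 alternatives. Dab2 is also known in macrophages outside the parenchyma, and the summed level of 9 border macrophage markers was 160 to 308 CPM in Normal, 13.1 to 196 in NMO and 228 to 412 in NMO+CL, with Cd163 and Cd209f at 0 in all NMO libraries and Cd163 in all NMO+CL libraries. Most of that sum was Cbr2, which was at 272, 202 and 125 CPM in Normal, at 159, 0 and 155 CPM in NMO and at 185, 247 and 395 CPM in NMO+CL. The other 8 markers summed to 23.2 to 36.0 CPM in Normal, 13.1 to 37.1 CPM in NMO and 17.0 to 42.8 CPM in NMO+CL, and these ranges overlapped. One of the 8, F13a1, was at 0.319, 3.16 and 0.337 CPM in Normal, at 6.66, 2.15 and 3.04 CPM in NMO and at 7.30, 9.88 and 4.16 CPM in NMO+CL, with NMO+CL above Normal without overlap (log2 fold change 2.46, adjusted p = 0.212). Of the 9 border macrophage markers 7 were tested, and between NMO+CL and Normal 4 had a positive and 3 a negative log2 fold change. The 3 negative ones were Pf4 (-1.03), Lyve1 (-0.39) and Mrc1 (-0.13), and no marker of the list was called. The cells were sorted as P2ry12+, a marker that border macrophages are known to carry little of, and the part of such cells in the level of Dab2 was not tested.

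Other ligands were near the limit of detection, with group means of 0.29 to 2.95 CPM for Tgfb2 and 0.62 to 0.78 CPM for Tgfb3. Gdf11, Inhba, Inhbb, Acvr1b, Ltbp1, Ltbp2, Itgb6, Itgb8 and Smad9 did not pass the filter.

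**Figure D5:**
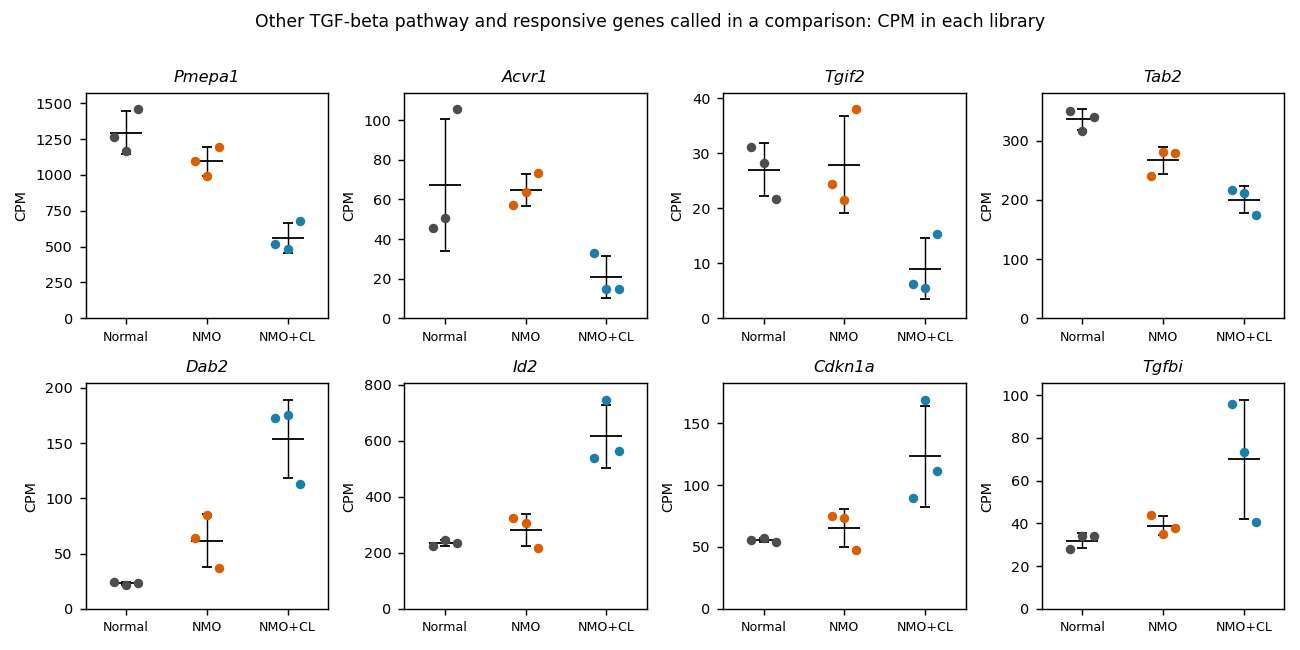
CPM (vertical axes from 0, 1 scale per gene) of the other pathway and responsive genes called in at least 1 comparison. Points are libraries, wide bars means and whiskers 1 SD (n = 3). Pmepa1, Acvr1, Tgif2 and Tab2 are lower in NMO+CL than in Normal, and Dab2, Id2, Cdkn1a and Tgfbi higher.

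Of 14 tested genes known to respond to TGF-beta, some by induction and some by repression and so with no single direction to look for, none was called between NMO and Normal (3 had an unadjusted p under 0.05, as had 1169 of the 12292 genes tested, and none was called by DESeq2 or limma-voom), 1 was higher and 1 lower between NMO+CL and NMO, and 3 were higher and 2 lower between NMO+CL and Normal. The shares of all genes called were 0.529% higher and 1.07% lower in the former and 4.79% and 4.43% in the latter. The 2 lower were Smad7 and Pmepa1, which are also counted above as a member and as a pathway gene. Id2, an inhibitor of helix-loop-helix factors, was at 225, 247 and 235 CPM in Normal, at 325, 305 and 217 in NMO and at 539, 746 and 562 in NMO+CL. It rose by 1.12 on the log2 scale against NMO (adjusted p = 0.00751) and by 1.38 against Normal (adjusted p = 2.93e-04), the former lost without NMO+CL replicate 2 (0.0645). The cell cycle inhibitor Cdkn1a rose from 55.5 ± 1.60 CPM in Normal to 123 ± 40.9 in NMO+CL (1.15, adjusted p = 0.00910, and 0.0813 without NMO+CL replicate 2). The matrix protein Tgfbi rose from 31.9 ± 3.49 to 70.0 ± 27.8 CPM (1.13, adjusted p = 0.0248), a call lost without any 1 Normal library (adjusted p of 0.0730 to 0.102) or without NMO+CL replicate 1 (0.130) or 2 (0.0844). Ends of secondary Tgfbi transcripts resembled those of 45 other genes, and the end of the principal transcript none.

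Of 19 microglial genes known to depend on TGF-beta, 1 was called lower between NMO and Normal, 6 between NMO+CL and NMO and 12 between NMO+CL and Normal, and none higher, where 0.0244%, 1.07% and 4.43% of all genes tested were called lower. Their median log2 fold changes were -0.32, -0.57 and -0.91. The list was written with earlier results of these data known, so these counts and medians describe it and are no independent support. Siglech, a microglial lectin, was called in each comparison, at 1357 ± 106 CPM in Normal, 740 ± 63.0 CPM in NMO and 330 ± 59.6 CPM in NMO+CL. Its log2 fold change between NMO and Normal was -0.88 (adjusted p = 0.0287), a call lost with library totals (0.0717), without Normal replicate 1 (0.0591), 2 (0.150) or 3 (0.117) and without NMO replicate 1 (0.133) or 3 (0.0791). P2ry12, on which the cells were sorted, differed by -2.22 between NMO+CL and NMO and by -2.79 between NMO+CL and Normal, and the receptor Gpr34 by -2.37 and -2.90. The transporter Slc2a5 differed by -1.41 and -2.01 and the protease inhibitor Cst3 by -1.01 and -1.33. These 4 genes were called in both comparisons in all 17 alternatives. Olfml3, a secreted protein, differed by -0.77 (adjusted p = 0.0435) and -1.22, and the call against NMO held in 7 of 17 alternatives, over which the adjusted p ran to 0.234, the value without NMO+CL replicate 2. Called against Normal alone were Sall1 (-0.91), Fcrls (-0.69), Cx3cr1 (-0.54), Sparc (-1.02), Adgrg1 (-1.04) and Rhob (-0.98). Sparc and Adgrg1 were called there in all 17 alternatives, Sall1 in 15, Fcrls in 14, Rhob in 13 and Cx3cr1 in 10, with the highest adjusted p without NMO+CL replicate 2 for Sall1 (0.0690), Fcrls (0.113) and Cx3cr1 (0.162), and without Normal replicate 3 for Rhob (0.172). Against NMO, Adgrg1 was called in 4 of the 17 alternatives, Rhob in 3, Fcrls and Cx3cr1 in 1 each, and Sall1 and Sparc in none. Of the 12 genes, 7 (P2ry12, Gpr34, Olfml3, Siglech, Sall1, Fcrls and Cx3cr1) are also among the 10 microglia markers summed above, so both describe the same values. Ends of secondary transcripts resembled those of 65 other genes for Siglech and 17 for Sparc, and the principal end of Cx3cr1 resembled that of Pigv over 75 bases. Tmem119 and C1qa were among those not called, with log2 fold changes of -0.32 and 0.01 between NMO+CL and Normal.

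Over the 9 libraries and 6224 genes with a mean of at least 20 CPM, the log2 CPM of Tgfbr1 was most like that of Dpysl2 (Pearson r = 0.982), Pik3cg (0.971) and Cbfa2t3 (0.970). That of Smad7 was most like Agfg2 (0.962), Tspan7 (0.953) and Taok1 (0.953). These values describe the 9 libraries, which share group differences and library scaling.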

How the data were processed

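RNA from sorted microglia was measured in 9 libraries, 3 each of Normal, NMO and NMO+CL. The authors made QuantSeq 3′ libraries, sequenced single reads of 75 bases, used Bowtie2 for alignment and bedtools for counting, and counted both unique and multiple alignments. The submitters' processing notes name the build mm10, and tool versions, annotation and strand use are not given in the sources used here. The deposited values are raw counts per gene, not normalized, and entries with the same symbol were summed (35 symbols on 79 of 23282 entries).

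Counts were analysed in R 4.3.3 with edgeR 4.0.16. Genes were filtered by filterByExpr (minimum count 10, minimum total 15), which left 12292, library sizes were scaled by TMM, and a quasi-likelihood model with 1 coefficient per group was fitted to all 9 libraries. Tests were two-sided, with Benjamini-Hochberg adjustment over all genes in each comparison, and calls were made at 0.05. The rule of 1.5-fold and p under 0.05 is that of the study's text for these microglia, its figure legends give a lower fold, and p was taken here as unadjusted, which the study does not state. The common biological coefficient of variation was 0.519. Total counts were 5788234 to 7837219 per library, and counting floors cover counting error only. Replicates differed by more than counting error (chi-square per degree of freedom 23.2 to 55.5). The 17 alternatives used RLE factors, library totals, Rn45s left out, no filter, DESeq2 1.42.0, limma 3.58.1 with voom, a replicate block, the 2 groups alone, and each library left out. Leaving out libraries in the ratios, and Cbr2 in the border macrophage markers, was added after seeing the data. No alternatives were run for single markers of other cell types.

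Named were all members, the called genes of each list and the 3 genes most like each called member. The rule also takes uncalled genes of short lists, up to 4 a list by unadjusted p. For the markers of other cell types these are given in the summed levels only, with some exceptions. Cbr2 and F13a1 were singled out after their values were seen. S100a8, S100a9, Vcan, Ccr2, Mrc1, Lyve1 and Pf4 were named later, also after their values were seen, to show how their lists vary. The value of 1 marker is not reported here. The members and lists were chosen with earlier results of these data known. Positions are from GENCODE M21 (GRCm38) and promoters from RefSeq (GRCm38.p6), which held 6 of the 10 members. Transcript ends of 500 bases were compared with all transcripts by BLAST, first for all annotated transcripts and then, after that result had been seen, for principal transcripts alone.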

Additional observations from a re-analysis of the deposited data

How the results depend on the processing

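Of 510 values of members under the 17 alternatives, 486 kept their direction and their side of the threshold. Members called between NMO+CL and NMO, 1 as reported, were 2 with no filter or DESeq2, 0 with the 2 groups alone and 0 to 2 with a library left out. Members called between NMO+CL and Normal, 2 as reported, were 1 with RLE factors or library totals and 1 to 2 with a library left out. Other pathway genes called were 0 with voom or the 2 groups alone and 0 to 1 with a library left out between NMO and Normal (1 as reported), 1 with the 2 groups alone and 0 to 3 with a library left out between NMO+CL and NMO (3 as reported), and 3 to 6 between NMO+CL and Normal (5 as reported). Responsive genes called were 0 to 3 between NMO+CL and NMO (2 as reported) and 2 to 5 between NMO+CL and Normal (5 as reported) with a library left out. TGF-beta dependent microglial genes called between NMO and Normal, 1 as reported, were 0 with library totals, 2 with DESeq2 or voom and 0 to 1 with a library left out, and those between NMO+CL and NMO, 6 as reported, were 5 to 10. Over all genes, calls between NMO and Normal (61 as reported) were 96 with library totals, 223 with no filter, 222 with DESeq2, 34 with the 2 groups alone and 20 to 75 with a library left out. Those between NMO+CL and NMO (196) were 496, 465 and 73 with no filter, DESeq2 and the 2 groups alone and 51 to 231 with a library left out, and those between NMO+CL and Normal (1134) were 649 to 1263 with a library left out.

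Log2 fold changes that changed sign were all uncalled. With library totals these were Tgfbr1 (0.0036), Smad2 (0.0660), Acvr1 (0.0282) and Cx3cr1 (0.0159) between NMO and Normal, and Ski between NMO+CL and NMO (-0.0077). That scaling moved the median of all genes between NMO and Normal from -0.0099 to 0.0969. With voom they were Acvr1 (0.0530) and Tgif2 (-0.0244) between NMO and Normal. With a library left out, values between NMO and Normal ran from -0.2987 to 0.0401 for Tgfbr1, -0.28 to 0.11 for Smad2, -0.11 to 0.21 for Smad3, -0.27 to 0.42 for Acvr1, -0.25 to 0.20 for Tgif2 and -0.4485 to 0.0582 for Rhob, and between NMO+CL and NMO from -0.60 to 0.15 for Smad4. The cause of these changes was not tested.

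The labels do not tie replicate numbers to a shared day or litter, so numbers were not treated as pairs. Correlations of deviations from group means were -0.0148 to 0.0302 for same-numbered libraries of different groups. For differently numbered libraries they were -0.0431 to 0.0306. With a replicate block Tgif2 between NMO and Normal was -0.0558, and 1 and 2 members were called between NMO+CL and NMO and between NMO+CL and Normal, as without it. Rhob between NMO+CL and NMO was called with the block (-0.7888, adjusted p = 0.0346, beside 0.203 as reported).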
